A study of Mus musculus with 12 samples.

Results

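Interferon-stimulated antiviral genes are the genes that cells switch on when interferon reaches its receptor, and 38 of them were described here across 4 groups of mouse peritoneal macrophage libraries. They were taken from a list of gene symbols that was chosen with earlier results of these data known. All 38 were found among the 24562 genes to which the transcript rows of the deposited count table could be assigned. Where a gene had several transcript rows, the row with the highest mean was kept. Each group held 3 libraries from female mice: high fat diet (HFD) with lipopolysaccharide (LPS) for 24 h, chow with LPS for 24 h, HFD at 0 h of LPS, and chow at 0 h of LPS. The series title names hypercholesterolemia and the pentose phosphate pathway. The labels give no strain, age, length of diet or LPS dose, and do not say whether LPS was given to the mice or to cultured cells. They also do not say that the 3 libraries of a group came from different mice, so the p-values measure the spread between libraries, which may be technical.

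As background, LPS binds Toll-like receptor 4 on macrophages, which through the adaptor TRIF leads to interferon-beta. Interferon signals through receptor-bound Janus kinases to transcription factors, IRF9 among them, which bind the interferon-stimulated response element in promoters. The genes induced in this way make proteins that sense viral RNA, block viral translation and replication, trap virions, or tag proteins with the ubiquitin-like modifier ISG15. In macrophages the same programme follows LPS without any virus.

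Total counts ran between 9135057 and 20688308 in 11 libraries, and HFD 0 h replicate 3 held 2360244. That library also stood apart on the second principal component of all tested genes. Levels are given in CPM, the count of a gene relative to the library total after trimmed-mean scaling. The 6 macrophage markers Adgre1, Csf1r, Cd68, Mertk, Itgam and Lyz2 were all detected in each of the 12 libraries and summed to between 9210 and 15600 CPM. The 6 markers of large peritoneal macrophages summed to between 22.5 and 68.8 CPM, with Gata6 between 4.25 and 17.7 CPM, and Timd4 and Selp had no count in HFD 0 h replicate 3. The 4 markers of monocytes and small peritoneal macrophages summed to between 88.1 and 217 CPM in the 24 h libraries, against 5.4 to 16.7 CPM in the 0 h libraries. Nearly all of the 24 h sum was Ly6c2, at 82.3 to 198 CPM, while Ccr2, which defines classical monocytes, was between 0.97 and 2.3 CPM at 24 h and between 3.6 and 9.91 CPM at 0 h. Sums of the 5 dendritic cell, 5 T cell and 3 NK cell markers did not exceed 6.18 CPM in any library, and Siglech, a plasmacytoid dendritic cell marker, did not exceed 1 CPM. Neutrophil markers summed to 27.9 to 82.9 CPM, mast cell markers to 12.1 to 21.7 CPM, B cell markers to 3.74 to 20.1 CPM, and mesothelial and stromal markers to 571 to 2530 CPM. Of the neutrophil list, S100a9 had counts only in chow 0 h replicate 1 and Ly6g did not exceed 0.197 CPM. Nearly all of the mesothelial and stromal sum was Col1a1, Col1a2 and Dcn, while Msln, Upk3b and Krt19 did not exceed 4.05, 3.01 and 3.08 CPM. The part of other cells in the results below was not tested, and in bulk RNA fewer cells of a type and less RNA per cell cannot be told apart.

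The promoters of 5 members that carry the interferon response motif in front of their start sites are shown, with that of 1 strongly induced member that does not. RefSeq windows of 300 bases (build GRCm38.p6), from 250 bases before the start of the gene to 50 bases after the site, were matched to 28 of the 38 members. The motif searched was GAAANNGAAA on either strand (TTTCNNTTTC as read on the other strand), and overlapping matches were each counted. Capitals mark every match, and each sequence runs in the direction of the gene. The windows are Isg15 on chr4:156200769-156201068 (minus strand), Ifit3 on chr19:34583279-34583578 (plus), Ifit3b on chr19:34607707-34608006 (plus), Ddx60 on chr8:61927837-61928136 (plus), Bst2 on chr8:71537423-71537722 (minus) and Cmpk2 on chr12:26468965-26469264 (plus).
Isg15: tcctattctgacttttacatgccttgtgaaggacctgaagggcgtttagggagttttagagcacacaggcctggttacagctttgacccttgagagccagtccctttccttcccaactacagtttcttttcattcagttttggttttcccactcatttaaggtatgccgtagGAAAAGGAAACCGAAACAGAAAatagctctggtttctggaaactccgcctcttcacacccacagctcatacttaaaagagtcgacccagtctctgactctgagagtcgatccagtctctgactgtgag
Ifit3: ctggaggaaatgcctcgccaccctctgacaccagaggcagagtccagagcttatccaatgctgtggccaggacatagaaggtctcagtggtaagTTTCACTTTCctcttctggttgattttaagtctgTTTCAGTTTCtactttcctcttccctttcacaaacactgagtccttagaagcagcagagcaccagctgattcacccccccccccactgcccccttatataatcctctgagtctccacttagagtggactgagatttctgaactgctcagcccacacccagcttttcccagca
Ifit3b: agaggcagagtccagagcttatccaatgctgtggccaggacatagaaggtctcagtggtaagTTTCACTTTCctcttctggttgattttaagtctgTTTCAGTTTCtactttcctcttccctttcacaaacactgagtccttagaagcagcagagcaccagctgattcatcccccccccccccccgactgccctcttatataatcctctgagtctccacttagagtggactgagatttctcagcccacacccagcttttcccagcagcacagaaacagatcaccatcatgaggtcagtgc
Ddx60: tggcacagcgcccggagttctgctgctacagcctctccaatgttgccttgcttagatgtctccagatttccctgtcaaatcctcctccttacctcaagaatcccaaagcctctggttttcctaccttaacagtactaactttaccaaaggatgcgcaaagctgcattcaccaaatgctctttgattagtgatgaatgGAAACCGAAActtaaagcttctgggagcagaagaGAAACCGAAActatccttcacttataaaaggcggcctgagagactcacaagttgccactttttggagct
Bst2: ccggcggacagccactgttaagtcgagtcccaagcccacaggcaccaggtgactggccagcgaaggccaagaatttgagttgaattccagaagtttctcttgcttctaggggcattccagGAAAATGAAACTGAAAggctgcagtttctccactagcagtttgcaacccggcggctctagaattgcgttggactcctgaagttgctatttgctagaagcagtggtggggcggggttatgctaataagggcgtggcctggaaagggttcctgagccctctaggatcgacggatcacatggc
Cmpk2: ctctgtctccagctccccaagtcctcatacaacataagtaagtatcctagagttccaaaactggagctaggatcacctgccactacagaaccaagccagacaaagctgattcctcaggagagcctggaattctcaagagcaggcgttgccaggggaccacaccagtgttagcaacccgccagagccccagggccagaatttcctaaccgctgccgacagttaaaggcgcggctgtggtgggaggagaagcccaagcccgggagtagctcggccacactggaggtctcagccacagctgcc

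Of the 28 members with a window, 13 held the motif (46.4%), against 1079 of 27025 genes with a window (3.99%). The Isg15 window held 3 overlapping matches that began 78, 72 and 66 bases before the start, and Bst2 held 2 overlapping ones at 130 and 124 bases before it. Ddx60 held 2 separate matches, at 53 and 19 bases before the start. The Ifit3 and Ifit3b windows held 2 matches each, on the opposite strand, 34 bases apart in both. Compared base by base without gaps after aligning the motifs, the windows of these neighbouring copies were equal at 201 of 268 positions (75%). With 1 mismatch allowed among the 8 fixed letters, 24 of 28 members (85.7%) and 38.9% of all genes matched. A match is a description of the letters, and no match in Cmpk2 says only that these letters are not in this window. The median log2 fold change with LPS of the 13 members with a match was 3.64 in HFD and 3.21 in chow, beside 2.62 in HFD and 2.49 in chow for the 15 members without one, and the ranges overlapped. The part of the motif in these changes was not tested.

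All 38 members were higher at 24 h of LPS in both diets, by edgeR's quasi-likelihood test at an adjusted p under 0.05 over all genes. Ifi27l2a in chow did not pass when the lane tag of the labels was a covariate (adjusted p = 0.25). The series holds no untreated group at the later time point. Throughout, a change or rise with LPS therefore means the change from 0 h to 24 h, and the part of elapsed time in it was not tested. In HFD, 38 of 38 were higher at 24 h than at 0 h, with a median log2 fold change of 3.12, while 12.7% of the 12641 genes tested were called higher, 12% were called lower and the median of all genes was 0. In chow, 38 of 38 were higher with a median of 2.73, while 13.7% of all genes were called higher and 12.9% lower. As the list was chosen with earlier results of these data known, setting it against all genes is not an independent test. In each diet the 3 libraries at 24 h lay above the 3 at 0 h for all 38 members, as for 18.2% of all genes in HFD and 22.5% in chow. Together the members made up 1.03%, 1.46% and 1.24% of the scaled counts in the HFD 24 h libraries and 1.47%, 1.34% and 1.74% in the chow 24 h libraries, against 0.147%, 0.159% and 0.139% in the HFD 0 h libraries and 0.205%, 0.202% and 0.216% in the chow 0 h libraries. All 38 passed the filter on low counts, of which Ifit3b and Mx2 passed only through the 24 h libraries, so these 2 had to differ.

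**Figure D1:**
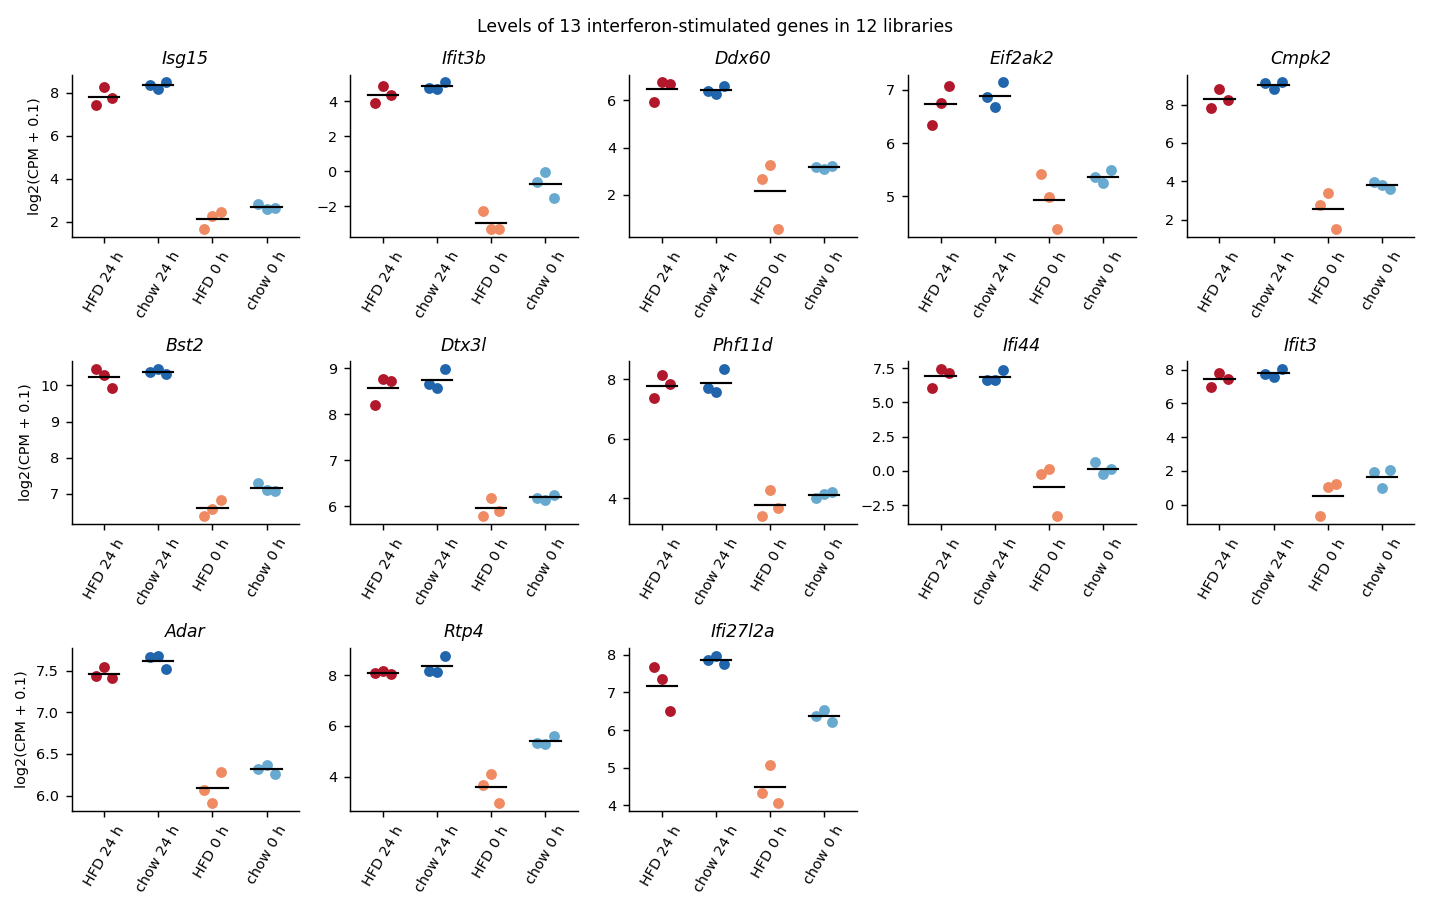
Levels of 13 members in each of the 12 libraries, as log2 of CPM plus 0.1, with HFD 24 h, chow 24 h, HFD 0 h and chow 0 h from left to right; points are libraries and black lines are group means on this scale. The 24 h points lie above the 0 h points of the same diet in every panel, and the HFD 0 h points of Rtp4 and Ifi27l2a lie below all chow 0 h points.

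Of the ISG15 system, in which a small ubiquitin-like protein is joined to target proteins, all 4 listed transcripts rose. Isg15 (chr4:156199424-156200818, minus strand, 2 exons) encodes the modifier itself, and its transcript had 173, 309 and 216 CPM in the HFD 24 h libraries against 3.02, 4.79 and 5.4 CPM in the HFD 0 h libraries. In chow it had 329, 292 and 366 CPM at 24 h against 6.9, 6 and 6.07 CPM at 0 h. Isg15 was low in all 0 h libraries and high in all 24 h libraries, and the groups did not overlap (log2 fold change 5.82 ± 0.26 (SE) in HFD, adjusted p = 5.04e-11, and 5.70 ± 0.23 in chow, adjusted p = 2.07e-11). Uba7, the enzyme that activates ISG15, rose with log2 fold changes of 2.63 in HFD and 2.49 in chow. Usp18, which removes ISG15 and restrains receptor signalling, rose by 3.89 in HFD and 3.6 in chow on the log2 scale. Herc6, the mouse ligase that attaches ISG15, rose by 3.57 and 3.42 in the same diets.

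The IFIT proteins, which bind viral RNA ends and block its translation, had the largest group median. All 4 rose, with a group median log2 fold change of 6.97 in HFD and 5.90 in chow. Ifit3 (chr19:34583531-34588731, plus strand, 2 exons) had 128, 228 and 178 CPM in the HFD 24 h libraries against 0.52, 2 and 2.25 CPM in the HFD 0 h libraries. In chow Ifit3 had 219, 187 and 266 CPM at 24 h against 3.72, 1.86 and 3.99 CPM at 0 h. The 24 h libraries lay far above the 0 h libraries in each diet. The log2 fold change of Ifit3 was 7.02 ± 0.39 in HFD (adjusted p = 2.12e-09) and 6.13 ± 0.33 in chow (adjusted p = 1.3e-09). Ifit3b (chr19:34607970-34613401, plus strand, 2 exons) was scarcer, at 14.9, 29.5 and 20.3 CPM in the HFD 24 h libraries and 27.6, 26.1 and 34.6 CPM in the chow 24 h libraries. Ifit3b was nearly undetected before LPS, holding 1, 0 and 0 counts in the HFD 0 h libraries and 7, 11 and 3 counts in the chow libraries at 0 h. In HFD its 1155 counts at 24 h against 1 at 0 h gave a ratio of 461 with an exact 95% counting interval of 82.6 to 18200, and the fitted log2 fold change of 8.54 rests on that 1 count. In chow the log2 fold change of Ifit3b was 5.67 ± 0.36 (adjusted p = 3.23e-09). Ifit3 and Ifit3b are near-identical copies, with 51.2% of the 50-base stretches of the Ifit3 transcript also found in that of Ifit3b, so how their reads were divided is uncertain. Ifit1 and Ifit2 rose by 5.91 and 6.93 in HFD and by 5.63 and 6.19 in chow on the log2 scale. Counting intervals cover counting error only.

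The RNA sensors rose less than the IFIT genes. Ddx58 (RIG-I) and Ifih1 (MDA5), which start the antiviral response on cytosolic RNA, had log2 fold changes of 2.83 and 2.43 in HFD and of 2.54 and 2.16 in chow. Dhx58 (LGP2), which tunes both sensors, had 3.10 in HFD and 2.77 in chow. Ddx60, a helicase linked to RIG-I signalling (chr8:61928089-62038244, plus strand, 38 exons), had the largest change of the 6, with 61.3, 110 and 102 CPM in the HFD 24 h libraries against 6.24, 9.46 and 1.35 CPM in the HFD 0 h libraries. In chow Ddx60 had 84.2, 76.1 and 98.8 CPM at 24 h against 9.03, 8.43 and 9.31 CPM at 0 h. The HFD 0 h value of 1.35 CPM was 3 counts in the shallow library, and the 24 h libraries lay above all 0 h libraries (log2 fold change 3.77 ± 0.31 in HFD, adjusted p = 1.79e-07, and 3.27 ± 0.29 in chow, adjusted p = 3.17e-07). Helz2 and Znfx1, 2 large helicases, rose by 2.35 and 2.17 in HFD and by 2.24 and 2.06 in chow.

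The RNA-binding and RNA-editing effectors had the smallest changes, with a group median of 1.55 in HFD and 1.42 in chow on the log2 scale. Adar (chr3:89730748-89753446, plus strand, 15 exons), which edits adenosine to inosine in double-stranded RNA, had 173, 186 and 170 CPM in the HFD 24 h libraries against 67, 60 and 77.8 CPM in the HFD 0 h libraries. In chow Adar had 202, 205 and 183 CPM at 24 h against 79.8, 82.3 and 76.3 CPM at 0 h. Its log2 fold changes, 1.38 ± 0.13 in HFD (adjusted p = 2.75e-07) and 1.31 ± 0.12 in chow (adjusted p = 3.8e-07), were the lowest of the 38. The means of its 3 transcript rows were between 97% and 100% of the highest, so the interferon-inducible long form and the constitutive short form could not be separated from these counts, and 23.2% of its bases lie opposite exons of Chrnb2. Eif2ak2 (chr17:78852564-78882573, minus strand, 16 exons), the kinase PKR that halts translation on double-stranded RNA, had 81.2, 108 and 135 CPM in the HFD 24 h libraries against 42.7, 31.8 and 20.7 CPM in the HFD 0 h libraries. In chow Eif2ak2 had 116, 102 and 142 CPM at 24 h against 41.1, 37.9 and 44.9 CPM at 0 h, and the times did not overlap in either diet. The change of Eif2ak2 was 1.71 ± 0.22 in HFD (adjusted p = 1.67e-05) and 1.54 ± 0.21 in chow (adjusted p = 3.44e-05) on the log2 scale. Tor3a, an interferon-inducible ATPase, rose by 1.47 in HFD and 1.42 in chow, and Epsti1 by 1.63 in HFD and 1.62 in chow.

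Among the genes that restrict nucleotides and replication, all 5 rose. Cmpk2 (chr12:26469204-26479837, plus strand, 5 exons), a mitochondrial nucleotide kinase, had 226, 451 and 302 CPM in the HFD 24 h libraries against 6.56, 10.2 and 2.7 CPM in the HFD 0 h libraries. In chow Cmpk2 had 553, 444 and 580 CPM at 24 h against 15.6, 13.7 and 12 CPM at 0 h. The groups did not overlap, with log2 fold changes of 5.47 ± 0.32 in HFD (adjusted p = 3.95e-09) and 5.25 ± 0.30 in chow (adjusted p = 2.8e-09). Rsad2 (viperin), its chromosome 12 neighbour, makes a chain-terminating nucleotide and rose by 4.86 in HFD and 5.33 in chow. The GTPase genes Mx1 and Mx2 rose by 5.21 and 4.98 in HFD and by 5.18 and 4.08 in chow. For both, the row kept is a RefSeq record of a non-coding transcript, so these counts do not say that a working protein was made. A coding record of Mx2 had a mean at 99.9% of the row kept. Samhd1, a dNTP hydrolase that was already at 202 ± 21.7 CPM in HFD and 282 ± 22.8 CPM in chow at 0 h (SD, n = 3 each), rose by 1.68 in HFD and 1.49 in chow.

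The membrane restriction factors were the most abundant members per kilobase of transcript. Bst2 (tetherin), which holds virions at the cell surface (chr8:71534255-71537456, minus strand, 5 exons), had 1400, 1250 and 982 CPM in the HFD 24 h libraries against 83.3, 96.5 and 114 CPM in the HFD 0 h libraries. In chow Bst2 had 1320, 1410 and 1280 CPM at 24 h against 159, 138 and 136 CPM at 0 h. It rose by 3.64 ± 0.17 in HFD (adjusted p = 6.43e-11) and 3.21 ± 0.16 in chow (adjusted p = 1.82e-10) on the log2 scale. Ifitm3, which blocks fusion in endosomes, rose by 3.56 in HFD and 2.54 in chow. Per kilobase of transcript at 24 h, Ifitm3 came first, at 1890 ± 63.1 CPM in HFD and 1770 ± 167 CPM in chow, and Bst2 next, at 1530 ± 269 CPM in HFD and 1680 ± 89.1 CPM in chow (SD, n = 3 each). In chow these 2 levels did not differ beyond their spread. The next 4 in HFD at 24 h were Ifi27l2a, Samhd1, Rsad2 and Isg15, at 330 ± 125, 325 ± 51.1, 317 ± 122 and 307 ± 92.5 CPM per kilobase, whose spreads overlap. Ifit3b and Mx2 were the lowest at that time, at 10.8 and 5.12 CPM per kilobase. Across the 38 members, levels per kilobase at 24 h and at 0 h were ordered only loosely alike, with a Spearman rho of 0.54 in HFD and 0.56 in chow, over points that share library and transcript length. Isg15, at rank 24 of 38 in HFD at 0 h, was at rank 6 at 24 h.

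The ADP-ribosylation genes rose together by similar amounts. Dtx3l (chr16:35926511-35939151, minus strand, 5 exons), a ubiquitin ligase that works as a partner of PARP9, had 294, 435 and 422 CPM in the HFD 24 h libraries against 54.8, 72.4 and 59.8 CPM in the HFD 0 h libraries. In chow Dtx3l had 403, 382 and 507 CPM at 24 h against 72.7, 70 and 76.1 CPM at 0 h. Its log2 fold changes were 2.62 ± 0.17 in HFD (adjusted p = 5.17e-09) and 2.56 ± 0.17 in chow (adjusted p = 5.79e-09), with no overlap of the times. Parp9, which starts head to head with it, rose by 2.54 in HFD and 2.29 in chow, and Parp14, an ADP-ribosyltransferase, by 2.60 in HFD and 2.51 in chow. Exons of Dtx3l and Parp9 overlap on opposite strands over 8.63% of the Dtx3l transcript, and reads from that stretch cannot be told apart without strand.

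Of the nuclear genes, Phf11d (chr14:59347407-59365470, minus strand, 11 exons), a zinc finger gene of the Phf11 cluster, changed most. It had 164, 280 and 226 CPM in the HFD 24 h libraries against 10.4, 19.4 and 12.6 CPM in the HFD 0 h libraries. In chow Phf11d had 210, 191 and 326 CPM at 24 h against 15.8, 17.7 and 18.5 CPM at 0 h. The libraries of the 2 times were far apart in both diets (log2 fold change 3.96 ± 0.27 in HFD, adjusted p = 1.68e-08, and 3.81 ± 0.26 in chow, adjusted p = 1.45e-08). Of its 50-base stretches, 10.1% also occur in Phf11c. The nuclear body component Sp100 rose by 2.24 in HFD and 2.18 in chow. The PYHIN genes Ifi203 and Ifi204 rose by 3.13 and 2.84 in HFD and by 3.15 and 2.69 in chow, with 23.2% of the Ifi204 stretches also in Ifi211.

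Among the other members Ifi44 (chr3:151730922-151749960, minus strand, 8 exons), an interferon-induced protein of the cytoplasm, changed most. It had 67.4, 174 and 141 CPM in the HFD 24 h libraries against 0.728, 1 and 0 CPM in the HFD 0 h libraries. In chow Ifi44 had 97.2, 96.5 and 162 CPM at 24 h against 1.43, 0.73 and 0.998 CPM at 0 h. It was almost silent before LPS, with 7, 9 and 0 counts in the HFD 0 h libraries, and its log2 fold change was 7.37 ± 0.51 in HFD (adjusted p = 7.05e-08) and 6.80 ± 0.44 in chow (adjusted p = 3.47e-08). Xaf1, a pro-apoptotic zinc finger protein, rose by 4.40 in HFD and 3.59 in chow. Ifi35 rose by 2.61 in HFD and 2.29 in chow, and Trim30a, a TRIM family member, by 2.55 in HFD and 2.37 in chow. Across the 38 members the LPS changes in HFD and chow, which share no library, correlated with Pearson's r = 0.95 and Spearman's rho = 0.96.

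**Figure D2:**
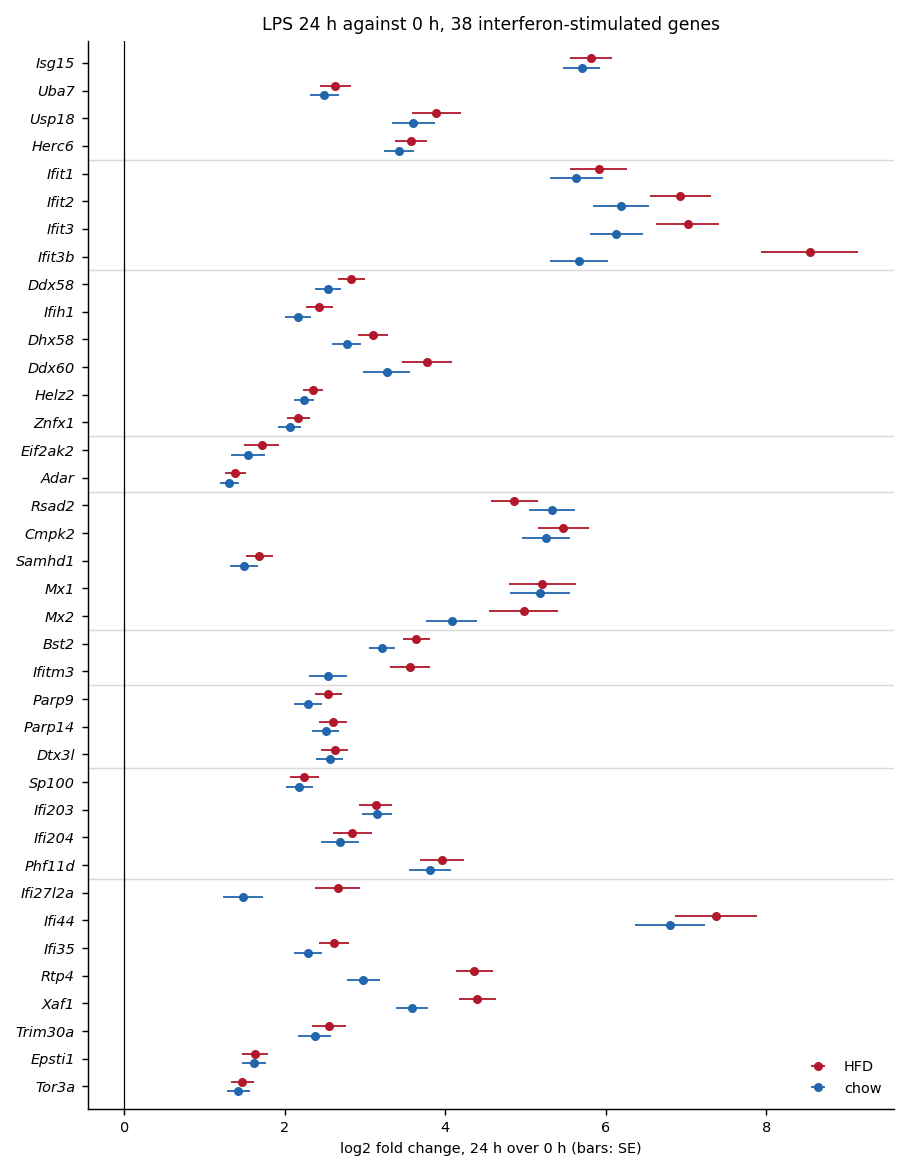
log2 fold change of 24 h over 0 h of LPS for each member, in HFD (red, upper) and chow (blue, lower), with bars for the SE; filled points passed at an adjusted p of 0.05, and grey lines divide the 9 role groups. All points are filled and positive, between 1.31 and 8.54, with Ifit3b, Ifi44, Ifit3 and Ifit2 farthest right in HFD.

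Before LPS, Rtp4 and Ifi27l2a were lower in HFD than in chow, and these were the 2 of 38 members that passed the test, while 0.087% of all genes were called lower. Rtp4 (chr16:23609919-23614222, plus strand, 2 exons), a chaperone of receptor transport, had 12.5, 17.3 and 7.64 CPM in the HFD 0 h libraries against 40.6, 39.3 and 48.6 CPM in the chow 0 h libraries. All 3 HFD libraries lay below all 3 chow libraries (log2 fold change -1.68 ± 0.22, adjusted p = 0.0021). Ifi27l2a (chr12:103442167-103443680, minus strand, 4 exons), a small interferon-inducible membrane protein, had 19.9, 33.3 and 16.6 CPM in HFD against 83.3, 91.9 and 73.9 CPM in chow, also without overlap (-1.78 ± 0.27, adjusted p = 0.0128). The call of Ifi27l2a ended on leaving out chow replicate 2 (adjusted p = 0.0625), HFD replicate 1 (0.0744) or HFD replicate 3 (0.0822) at 0 h, and with the other transcript row of the gene (0.0636). With LPS, Rtp4 had 270, 290 and 265 CPM in the HFD 24 h libraries and 289, 284 and 439 CPM in the chow 24 h libraries, and Ifi27l2a had 205, 162 and 90.9 CPM in HFD and 230, 251 and 215 CPM in chow. Both rose with LPS in each diet, Rtp4 by 4.36 ± 0.23 in HFD (adjusted p = 3.87e-10) and 2.98 ± 0.21 in chow (9.7e-09), and Ifi27l2a by 2.66 ± 0.28 in HFD (2.57e-06) and 1.48 ± 0.25 in chow (0.00035). The change of Ifi27l2a in chow was 0.79 and did not pass once the lane tag entered the model (adjusted p = 0.25).

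The other 36 members did not pass at 0 h, but all 38 had a negative log2 fold change of HFD over chow, with a median of -0.43, where 6246 of the 12641 genes tested were negative and their median was 0. For 19 of 38 members the HFD 0 h libraries lay below the chow 0 h libraries without overlap, as for 6.35% of all genes, and 20 had an unadjusted p under 0.05, as had 778 of all genes. The 19 and the 20 both include Ifit3b and Mx2, which passed the filter on low counts only through the 24 h libraries. When only the 0 h libraries were fitted, 36 members were tested. All 36 were negative, with a median of -0.44, and 2 passed. The 38 values come from the same 6 libraries and are not independent of each other. Some cell markers also lay apart between the diets at 0 h, and no test result of a marker is given here. Of 49 markers, 6 lay lower in HFD than in chow without overlap (Adgre1, Csf1r, Ccr2, Retnlg, Tpsb2 and Flt3) and 1 lay higher (S100a8). Among all genes, 6.35% lay lower without overlap. Flt3 held only 1, 7 and 0 counts in the HFD 0 h libraries, and Csf1r had up to 896 CPM in HFD against 910 CPM or more in chow. Adgre1, a macrophage marker, had 282, 309 and 180 CPM in the HFD 0 h libraries against 383, 398 and 391 CPM in the chow 0 h libraries. Ccr2 had 4.27, 6.9 and 3.6 CPM in HFD against 9.91, 6.97 and 7.15 CPM in chow. Retnlg, on the neutrophil list, had 2.08, 5.34 and 0 CPM in HFD against 11.4, 9.08 and 11.6 CPM in chow. S100a8, on the same list, went the other way, at 12.7, 11 and 13 CPM in HFD against 8.08, 9.81 and 9.06 CPM in chow. The summed neutrophil list overlapped, at 27.9 to 46.4 CPM in HFD and 34.6 to 40.8 CPM in chow. The summed macrophage markers overlapped, at 14000 to 15600 CPM in HFD and 14200 to 15500 CPM in chow, as did the summed monocyte list, at 5.4 to 12.8 CPM in HFD and 9.97 to 16.7 CPM in chow. The part of these markers in the differences of the members was not tested. The nearest to passing among the members were Ifitm3 (-0.93 ± 0.23, adjusted p = 0.25), Xaf1 (-0.92 ± 0.24, 0.273) and Bst2 (-0.57 ± 0.15, 0.279). Among the lowest genes the counts were few: Ifit3b held 1 count in all HFD 0 h libraries against 21 in chow, a ratio of 0.0846 with an exact 95% counting interval of 0.00205 to 0.526. Without the shallow HFD 0 h replicate 3, 38 of 38 were still negative with a median of -0.41, and 1 of 38 passed. Without HFD 0 h replicate 1, 36 of 38 were negative with a median of -0.37.

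At 24 h of LPS no member passed between the diets (0 of 38 by edgeR, DESeq2 and limma-voom), while 0.00791% of all genes were called in either direction by edgeR. Of the 38, 31 had a negative log2 fold change of HFD over chow, with a median of -0.17, and 7 had an unadjusted p under 0.05, as had 993 of all genes. These 7 were Rsad2, Cmpk2, Isg15, Helz2, Sp100, Ifi27l2a and Epsti1. Rsad2 had the most negative difference, with 772, 1690 and 1140 CPM in the HFD 24 h libraries against 2230, 1640 and 2570 CPM in the chow 24 h libraries. The groups of Rsad2 overlapped through HFD replicate 2 and chow replicate 2 (-0.84 ± 0.24, 95% interval -1.36 to -0.32, adjusted p = 0.421). For 3 of 38 members, Helz2, Znfx1 and Ifi27l2a, the HFD libraries lay below the chow libraries without overlap, as for 5.98% of all genes. The interval of the difference was -0.56 to -0.06 for Helz2, -0.39 to 0.58 for Ifitm3 and -0.45 to 0.17 for Bst2.

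Single libraries moved the 24 h values. HFD 24 h replicate 1 was the lowest of the 6 libraries at 24 h for 31 of 38 members, with a median of -0.55 on the log2 scale against the chow 24 h mean, and chow 24 h replicate 3 was the highest for 24 of 38, with a median of 0.24. HFD 24 h replicates 2 and 3 lay at 0.01 and -0.23. Without HFD 24 h replicate 1, 24 of 38 members were negative, with a median of -0.12, and without chow 24 h replicate 3 it was 25 of 38, with a median of -0.11. The median was -0.29 without HFD 24 h replicate 2 and -0.26 without chow 24 h replicate 2. The labels give a lane tag for HFD 24 h replicate 1 and all 3 chow 24 h libraries and for no other library, so within chow the tag and the LPS time cannot be told apart. With the tag as a covariate, which sets that 1 HFD library against the 3 chow libraries, the median at 24 h was -0.54 with 36 of 38 negative and 0 called. Chow 24 h replicate 3 also held the highest Ly6c2, at 198 CPM, and the highest Ifng, at 12.5 CPM, and the part of these in its values was not tested.

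**Figure D3:**
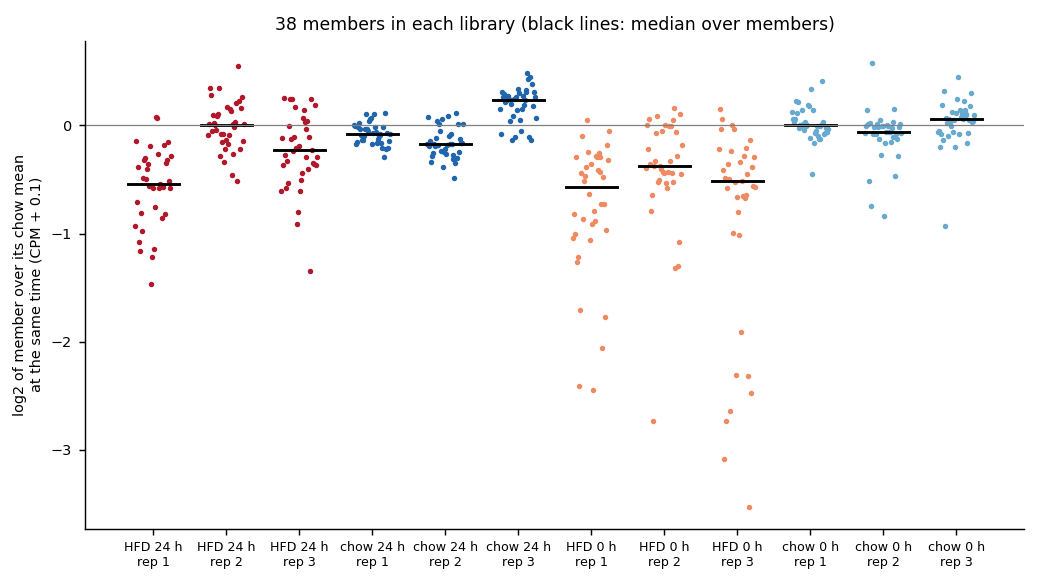
log2 ratio of each member in each library to the mean of that member in the chow libraries of the same time, on CPM plus 0.1, with HFD 24 h, chow 24 h, HFD 0 h and chow 0 h from left to right; points are the 38 members and black lines their median. The 3 HFD 0 h libraries have medians of -0.57, -0.38 and -0.52, and the HFD 24 h libraries of -0.55, 0.01 and -0.23.

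**Figure D4:**
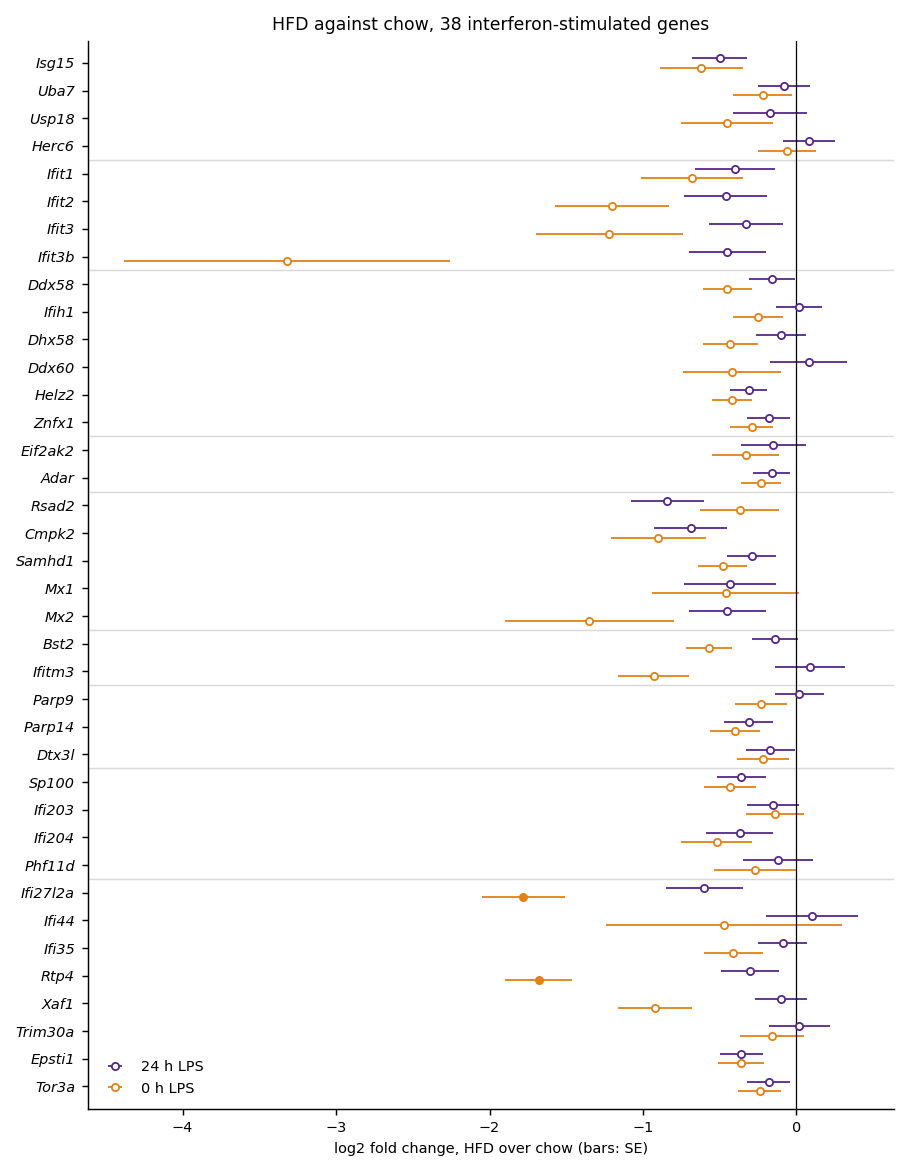
log2 fold change of HFD over chow for each member at 24 h of LPS (purple, upper) and at 0 h (orange, lower), with bars for the SE; filled points passed at an adjusted p of 0.05 and grey lines divide the role groups. At 0 h all points lie left of 0 and those of Ifi27l2a and Rtp4 are filled; at 24 h none is filled.

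Whether diet changed the LPS response was tested as the difference of the LPS changes. No member and 0% of all genes passed this test by edgeR, while 5 of 38 members and 297 of 12641 genes had an unadjusted p under 0.05. The difference (HFD change minus chow change) was positive for 36 of 38 members, with a median of 0.20, and it uses the same 0 h libraries as the diet comparison before LPS. Rtp4 had the smallest p, with changes of 4.36 in HFD and 2.98 in chow and a difference of 1.39 ± 0.29 (adjusted p = 0.395). That difference passed under DESeq2 (adjusted p = 0.0159), with the numbers of the labels as a replicate block (0.0356) and without chow 24 h replicate 3 (0.0333). The other 4 with an unadjusted p under 0.05 were Ifi27l2a (1.18 ± 0.36), Ifitm3 (1.02 ± 0.33), Xaf1 (0.82 ± 0.29) and Ifit3b, whose value rests on 1 count. Single libraries moved the median of 0.20, which was 0.10 without HFD 24 h replicate 2, 0.13 without chow 24 h replicate 2, 0.36 without HFD 24 h replicate 1, 0.37 without HFD 0 h replicate 2 and 0.39 without chow 24 h replicate 3. The median became -0.08, with 24 of 38 negative, when the lane tag was a covariate.

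The interferon pathway around these genes was read from 41 listed genes, of which 34 were tested. In HFD 20 of the 34 rose and 4 fell with LPS, and in chow 19 rose and 3 fell. Ifng was among those that rose in each diet. It had no count at 0 h and passed the filter on low counts only through the 24 h libraries, so it had to differ. Of all genes, 12.7% were called higher and 12% lower in HFD, and 13.7% higher and 12.9% lower in chow, so the share of pathway genes that fell is near that of all genes. Of the ligands, Ifnb1, the interferon that LPS induces first, had 1, 6 and 0 counts in the HFD 24 h libraries and 6, 1 and 3 counts in the chow 24 h libraries, and no count in any 0 h library. Ifna1, Ifna2, Ifna4, Ifnl2 and Ifnl3 were listed at 0 in all 12 libraries. Ifng, the type II interferon made mainly by T and NK cells, had 2.22, 3.75 and 6.05 CPM in the HFD 24 h libraries and 3.58, 2.69 and 12.5 CPM in the chow 24 h libraries, and no count at 0 h. With a floor of 3 counts put in place of no count over a group, Ifng was 30.1-fold higher at 24 h than at 0 h in HFD. In chow it was 83.3-fold higher on the same floor. These values are not lower limits, as the exact 95% counting interval of the ratio began at 24.3 in HFD and at 67.3 in chow. The NK marker sum did not exceed 2.25 CPM and the T cell marker sum 6.07 CPM in any library.

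Of the 5 listed IRF factors other than Irf9, 3 rose in each diet, and Irf3 and Irf5 did not pass (log2 fold changes -0.48 and -0.27 in HFD, and -0.35 and -0.03 in chow). Stat2 rose by 2.96 in HFD and 2.46 in chow, and Irf9 by 1.34 in HFD and 0.91 in chow. The receptor chains Ifnar1 and Ifnar2 rose, by 0.85 and 1.32 in HFD and by 0.42 and 1.22 in chow, while Ifngr1, the interferon-gamma receptor, fell by 0.90 in HFD and by 0.94 in chow. Among the regulatory factors, Irf1 rose by 3.82 in HFD and 3.81 in chow, and Irf8 by 0.65 in HFD and 0.68 in chow. Socs1 and Socs3, which feed back on the kinases, rose by 4.43 and 4.07 in HFD and by 4.91 and 3.98 in chow. Upstream, the LPS co-receptor gene Cd14 rose by 2.22 in HFD and 2.17 in chow, and the adaptor gene Ticam1 (TRIF) fell by 0.63 in HFD and by 0.44 in chow. Il10rb, a receptor chain shared with interleukin-10, fell by 1.15 in HFD and by 0.96 in chow, and the phosphatase gene Ptpn1 fell by 0.40 in HFD and had -0.33 in chow, which did not pass.

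Irf7, the factor that amplifies interferon output, was the only one of the 34 that passed between the diets. It had 57.7, 98.3 and 84.5 CPM in the HFD 0 h libraries against 198, 182 and 187 CPM in the chow 0 h libraries, without overlap (log2 fold change -1.24 ± 0.17, adjusted p = 0.00291). At 24 h Irf7 had 1660, 1960 and 1460 CPM in HFD and 1840, 1790 and 1890 CPM in chow, which overlapped (-0.12 ± 0.16, 95% interval -0.46 to 0.22). Like Rtp4 it was lower in HFD before LPS with levels that overlapped after it, and its difference of the LPS changes was 1.12 ± 0.23 (adjusted p = 0.395). Stat2 and Irf9 had differences at 0 h of -0.66 and -0.56 that did not pass (adjusted p = 0.172 and 0.219).

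**Figure D5:**
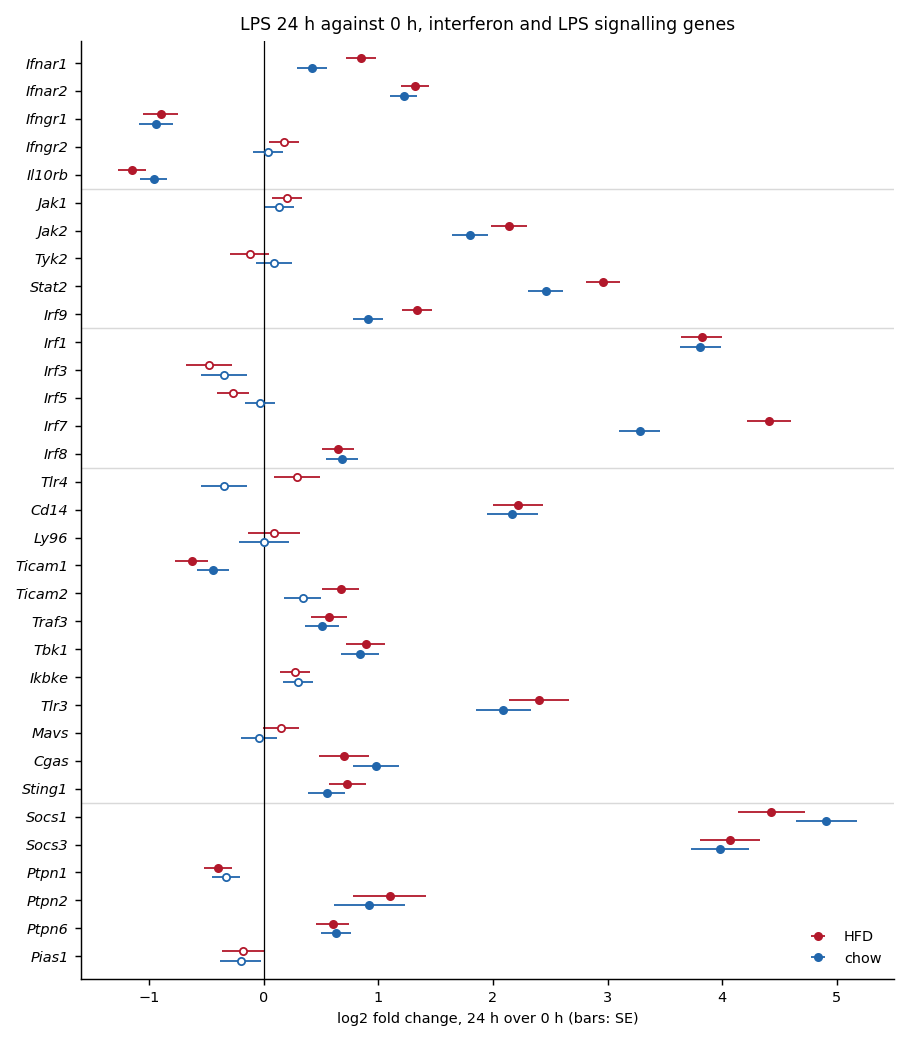
log2 fold change of 24 h over 0 h of LPS for the tested signalling genes other than Ifng in HFD (red, upper) and chow (blue, lower), with bars for the SE; filled points passed at an adjusted p of 0.05, and grey lines divide receptors, kinases and STAT factors, IRF factors, upstream genes and negative regulators. Socs1, Irf7, Socs3, Irf1 and Stat2 lie farthest right, and Il10rb and Ifngr1 farthest left; Ifng is not drawn because it had no count at 0 h.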

How the data were processed

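The authors deposited whole-number counts per RefSeq transcript for 12 libraries, which were not normalized. Per the labels' protocols, a Qiagen RNAeasy mini kit served for RNA extraction and a NuGen Ovation Universal kit for library construction. Per the submitters' processing notes, CASAVA 1.8.2, STAR 2.5.2b and mm10 were used; no source used here gives the read counter or its strand setting. All columns of the deposited table mapped to a sample. Of 35745 identifiers, 35440 were matched to symbols through the RefSeq gene table (GRCm38.p6) and 188 through GENCODE, and 117 stayed unmatched.

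Between libraries of a group the chi-square per degree of freedom was between 6.24 and 74, so none was a duplicate. The highest-mean row per gene was kept. edgeR 4.0.16 (R 4.3.3) fitted 4 group means over the 12 libraries with trimmed-mean scaling, the filterByExpr filter and the robust quasi-likelihood test. P-values were adjusted by Benjamini-Hochberg over all 12641 genes tested, and the threshold was 0.05. The SE is the log2 fold change divided by the square root of its F statistic, and CPM is on the scaled library sizes. Alternatives were DESeq2 1.42.0, limma-voom (limma 3.58.1), other scaling factors and filters, the compared groups alone, a replicate block, the lane tag, another transcript row and each library left out. The fit was tested on simulated counts with known changes. Values in every library are given for the member with the largest mean LPS change in each of 9 role groups, for members that passed between diets or in the difference, and for Ifit3, Ifit3b and Adar; Rsad2 was added after its values were seen. The members and lists were chosen with earlier results of these data known. Positions are from GENCODE vM21 and promoter windows from RefSeq, both on GRCm38. 1 gene of the pathway list is not reported here.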

Additional observations from a re-analysis of the deposited data

How the results depend on the processing

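The 38 of 38 calls with LPS in HFD held under every alternative run, and in chow under every one except the lane tag as a covariate, where 37 passed and Ifi27l2a did not (log2 fold change 0.79, adjusted p = 0.25). No change that passed turned round in direction under any alternative run. Signs of members that did not pass did: negative differences of HFD over chow at 24 h numbered between 24 and 37 of 38, against 31, and negative differences of the LPS changes numbered 24 with the lane tag, against 2. The count of 0 at 24 h between the diets also held throughout, while all genes called numbered 1 higher in edgeR, 21 higher and 18 lower in DESeq2, 4 and 7 in limma-voom and 8 and 2 without the filter on low counts. At 0 h, the count of 2 was 1 with the lowest transcript row of each member and 3 in DESeq2, where Ifitm3 passed (adjusted p = 0.0243), and it ran between 1 and 3 when single libraries were left out. Rtp4 passed at 0 h in all 23 alternatives (adjusted p between 4.75e-10 and 0.0402) and Ifi27l2a in 19 of 23 (2.33e-08 to 0.0822). Of all genes at 0 h, 11 were called lower in edgeR, 53 lower and 9 higher in DESeq2, 22 lower and 1 higher without the filter, 18 lower with the replicate block, and 23 lower and 2 higher without HFD 24 h replicate 2. The difference of the LPS changes had 0 members called, 1 in DESeq2 and 1 with the replicate block, and between 0 and 1 when single libraries were left out, in each case Rtp4, whose adjusted p ran between 0.0159 and 1. For all genes this difference had 0 calls in edgeR, 8 higher and 1 lower in DESeq2, 4 higher with the block and 3 higher without the filter. The lane tag took the calls of all genes with LPS in chow to 874 higher and 635 lower, against 1729 higher and 1628 lower. With 1 mismatch allowed in the promoter motif, the share of members with a match was 85.7%.

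The same-numbered libraries of the 2 times correlated, as deviations from their group means, at 0.06, 0.26 and 0.03 in HFD and at 0.30, 0.09 and 0.35 in chow. Libraries of different numbers correlated at -0.18 to 0.09 in HFD and at -0.31 to 0.11 in chow. Not every library correlated best with its own number. These values do not decide whether the numbers pair the samples, and the main fit had no replicate block. The replicate block was the number of the labels for the LPS changes and their difference. For the diet comparisons it was the replicate number of the titles, which no label says links a chow with an HFD library. With these blocks the counts stayed at 38 of 38 with LPS in both diets, 0 at 24 h and 2 at 0 h. The alternative without the largest identifier that has no symbol was chosen after seeing the data and changed no count of members. The cause of these changes was not tested. With 3 libraries a group and 1 of them shallow, members under about 1 CPM at 0 h rest on few counts, and the lane tag falls on 1 HFD library only.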
